A study of Saccharomyces cerevisiae with 24 samples.

Results

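The genes described are the 33 that encode 32 subunits of the yeast 26S proteasome and their transcriptional activator, out of 6814 genes in the deposited tables. The members are defined by gene identity and not by a threshold on measured values, and the small lid subunit SEM1 is not among them. They comprise 14 genes of the 20S core (7 alpha-ring and 7 beta-ring subunits), 18 genes of the 19S regulatory particle (6 ATPases and 4 other subunits of the base, and 8 of the lid) and the regulator RPN4. All 33 were listed in each of the 7 tables and passed the filter on low counts in every fit.

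The proteasome degrades proteins that carry ubiquitin chains. The 19S particle binds such proteins, removes the ubiquitin and unfolds the chain with its ATPase ring, and the 20S core cuts it inside a closed barrel. In budding yeast the subunit genes are transcribed together by Rpn4, a zinc-finger activator that binds the proteasome-associated control element (PACE) in their promoters and is itself rapidly degraded by the proteasome. RPN4 in turn is known to be activated by Pdr1 and Pdr3, the regulators of pleiotropic drug resistance, and by the stress factors Yap1 and Hsf1.

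RNA was sequenced from cultures of Saccharomyces cerevisiae GA74-1A that lacked both phosphatidylserine decarboxylases, psd1Δ psd2Δ, enzymes that make phosphatidylethanolamine (PE). The mutant strain (LG) carried Psd1 in which the LGS residues where the enzyme cuts itself into its active form were replaced by alanines (LGS/AAA). Per the labels this variant no longer processes itself and leaves the strain dependent on ethanolamine. The control strain (WT) carried functional Psd1-3XFLAG, so that it also lacked PSD2. Each strain was grown in plain YPD (LGD, WTD), with 2 mM ethanolamine (LGE, WTE), with 1% tergitol and 0.5 mM lyso-PE (LGL, WTL) or with 2 mM choline (LGC, WTC), 3 libraries a group and 24 in all. Nothing in the labels says whether a strain was 1 clone or whether the 3 libraries were separate cultures, so the p-values measure only the spread between these libraries. The lyso-PE medium contained the detergent as well, and no medium with tergitol alone was analysed here, so the effects of the detergent and of lyso-PE cannot be told apart.

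Library totals ran from 16044470 to 20946936 counts, and the 33 members took 0.651% to 1.01% of them. PSD1 was measured at 364 to 859 CPM, counts scaled to library size, in 12 LG libraries and at 551 to 888 CPM in 12 WT libraries, which does not check the strains because the mutation changes residues and not the gene's presence. In every group replicates 1 and 2 nearly coincided and replicate 3 stood apart. Pearson's r of log2 CPM across genes was 0.995 to 0.998 between replicates 1 and 2 of the 8 groups and 0.94 to 0.99 in the 16 pairs with replicate 3. Counts of replicates 1 and 2 still differed by more than sampling noise, with a chi-square per degree of freedom of 2.65 to 16.9, against 84.5 to 309.0 in pairs with replicate 3. Summing replicates 1 and 2 into 1 library left 0 of the 33 members called in each comparison below. Over all genes such fits called 0% in LGC vs WTC, 1.53% in LGD vs WTD and 4.65% in WTE vs WTD. The highest share was 13.6%, in the strain difference averaged over the 4 media. In a fit without replicate 3 of a group, the spread within that group rests on 2 libraries that nearly coincide.

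Most subunit genes share a promoter sequence, which was not found before RPN4. The motif GGTGGCAAA, the PACE core, was searched on both strands in the 500 bases before the start codon in the R64 genome of RefSeq. It occurred in 27 of 32 subunit genes (84.4%) and in 98 of 5829 genes in all (1.68%). Each of the 27 held 1 match, 19 on the gene's own strand and 8 on the opposite strand, beginning 84 to 183 bases before the start codon (median 120). The alpha subunit PRE5, the beta subunit PUP1, the ubiquitin receptors RPN10 and RPN13 and the lid subunit RPN8 held no exact match. Below are 4 subunit promoters with the motif, those with the smallest and the largest p between the strains in plain YPD, and then that of RPN13. The windows run from 200 to 71 bases before the start codon, 5′ to 3′ on the strand of the gene, and capitals mark the motif, which reads TTTGCCACC where it lies on the opposite strand. SCL1, an alpha-ring subunit, is at chrVII:475318-475447 on the minus strand, and RPN11, the deubiquitinase of the lid, at chrVI:153193-153322 on the plus strand. RPN12, a lid subunit, is at chrVI:252305-252434 and RPT5, a base ATPase, at chrXV:544829-544958, both on the plus strand. RPN13 is at chrXII:965631-965760 on the minus strand.
SCL1: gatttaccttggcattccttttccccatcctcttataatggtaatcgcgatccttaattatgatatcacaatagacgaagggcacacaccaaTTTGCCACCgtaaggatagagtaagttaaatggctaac
RPN11: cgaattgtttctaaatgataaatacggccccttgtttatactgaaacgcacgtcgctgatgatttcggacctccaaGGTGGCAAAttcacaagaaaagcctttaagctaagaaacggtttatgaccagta
RPN12: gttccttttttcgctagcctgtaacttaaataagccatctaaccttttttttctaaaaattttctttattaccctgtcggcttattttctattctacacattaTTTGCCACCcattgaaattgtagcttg
RPT5: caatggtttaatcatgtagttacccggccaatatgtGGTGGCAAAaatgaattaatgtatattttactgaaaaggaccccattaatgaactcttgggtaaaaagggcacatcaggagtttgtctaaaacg
RPN13: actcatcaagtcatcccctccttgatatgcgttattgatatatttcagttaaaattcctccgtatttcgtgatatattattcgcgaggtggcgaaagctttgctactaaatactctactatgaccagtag

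The RPN4 promoter held another motif. The pleiotropic drug response element, bound by Pdr1 and Pdr3, was searched as TCCGCGGA and as TCCGTGGA (TCCACGGA on the opposite strand), which overlap neither each other nor PACE letter for letter. TCCGCGGA occurred in 37 of 5829 upstream windows (0.635%) and TCCGTGGA in 63 (1.08%), and neither occurred in any of the 32 subunit genes. RPN4 held TCCGTGGA at both 442 and 399 bases before its start codon, the second match on the opposite strand. The stretch from 470 to 371 bases upstream, at chrIV:417079-417178 on the minus strand, is given with both matches in capitals.
RPN4: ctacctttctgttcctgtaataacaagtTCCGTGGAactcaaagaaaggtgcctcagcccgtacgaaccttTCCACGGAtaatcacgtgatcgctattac

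RPN4 (YDL020C, R64 chromosome IV, 415113 to 416708, minus strand) was the member with the largest differences between the strains, and it was higher in LG in plain YPD and with choline. Its level was higher in the LG library than in the WT library of the same medium and number in 12 of 12 pairs. Over all media it lay at 255 CPM (lowest), 337 CPM (median) and 529.5 CPM (highest) in the 12 LG libraries, against 112, 189 and 421 CPM in the 12 WT libraries. Every LG library exceeded the median of the WT libraries, and 3 exceeded the highest of them, which was WTL replicate 3.

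In plain YPD, RPN4 had 313, 320.2 and 298 CPM in LGD (mean 310.5 ± 11.5, SD, n = 3), against 220.2, 210.2 and 169 CPM in WTD (199.7 ± 27.4). All 3 LGD libraries lay above all 3 WTD libraries. The difference was 0.61 ± 0.127 on the log2 scale (SE; adjusted p = 0.0117, edgeR's quasi-likelihood test with Benjamini-Hochberg adjustment over 6169 genes). It passed the threshold of 0.05 in each of 6 fits that left out 1 library, with adjusted p from 0.00284 to 0.0484. It did not pass with replicates 1 and 2 summed (adjusted p = 0.137) or with all 24 libraries in one fit (adjusted p = 0.213).

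With choline the fitted difference was the largest of the 4 media. RPN4 had 529.5, 527 and 290.1 CPM in LGC, against 119, 112 and 220.1 CPM in WTC. The groups did not overlap, but replicates 1 and 2 were far apart between the strains and replicate 3 was not: the LGC minus WTC difference was 2.16, 2.24 and 0.40 on the log2 scale in replicates 1, 2 and 3. The fitted difference was 1.55 ± 0.342 (adjusted p = 0.027, edgeR). The call was lost without WTC replicate 1 (adjusted p = 0.118), WTC replicate 2 (0.115), LGC replicate 1 (0.0804) or LGC replicate 2 (0.0825). It was also lost with the replicate number as a block (adjusted p = 0.0614).

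With ethanolamine RPN4 had 354, 366.5 and 402 CPM in LGE, against 286, 259.7 and 125 CPM in WTE. The groups again did not overlap, yet the difference of 0.73 ± 0.297 had an adjusted p of 0.289 by edgeR's test, and WTE replicate 3 was far below the other WTE libraries. Without WTE replicate 3 the difference was 0.44 (adjusted p = 0.124). In the lyso-PE medium RPN4 had 255, 297.5 and 436 CPM in LGL, against 135.5, 146 and 421 CPM in WTL. These groups overlapped, because replicate 3 was high in both, and the difference was 0.51 ± 0.461 (adjusted p = 0.545). Without WTL replicate 3 it was 1.25 with an adjusted p of 0.046, where 5.71% of genes were called and the WTL libraries left nearly coincided. It was 0.23 without WTL replicate 1, 0.26 without WTL replicate 2 and 0.25 without LGL replicate 3, and none of these passed.

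**Figure D1:**
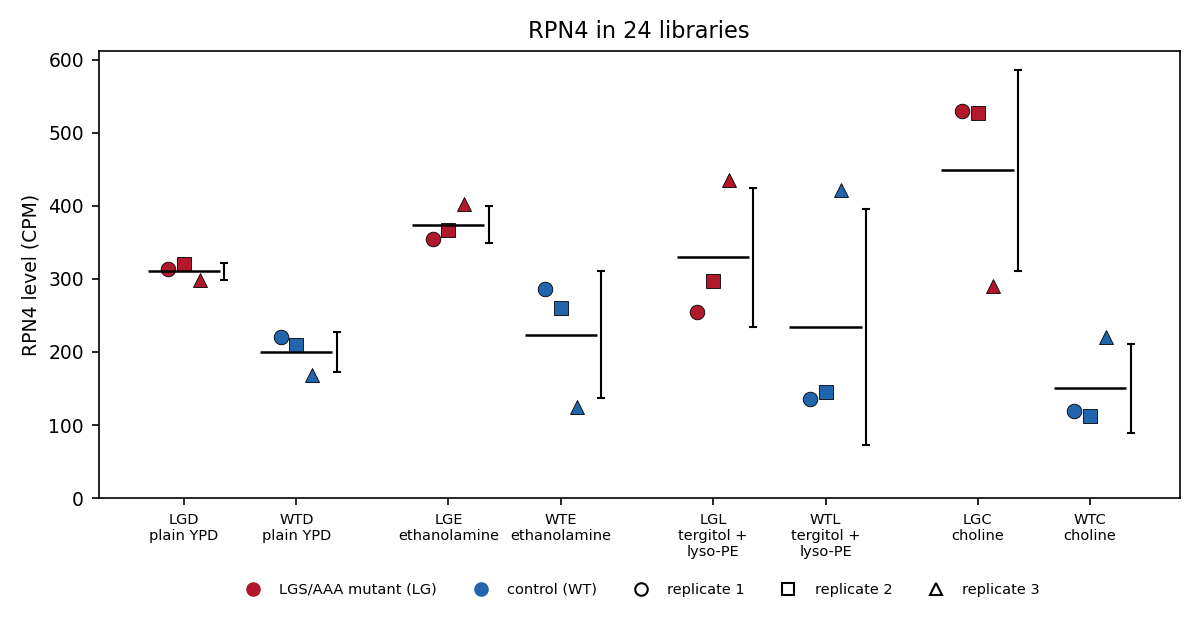
RPN4 in CPM (vertical axis, from 0) in 24 libraries by group, LG in red left of WT in blue for each medium, with symbols for the replicate numbers, a line at each group mean and bars of ± 1 SD (n = 3). Replicate 3 lies far from replicates 1 and 2 in WTE, LGL, WTL, LGC and WTC, and LG lies above WT in each same-numbered pair.

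Whether the strain difference in RPN4 depended on the medium was tested with interaction terms. The strain difference was larger by 0.94 ± 0.385 with choline than in plain YPD (adjusted p = 0.16, edgeR), larger by 0.11 ± 0.344 with ethanolamine (adjusted p = 0.883) and smaller by 0.13 with lyso-PE (log2 interaction -0.13 ± 0.514, adjusted p = 0.873). None of the 3 passed the threshold. A comparison added after the data were seen averaged the strain difference over the 4 media in 1 model of all 24 libraries. RPN4 was higher in LG by 0.86 ± 0.19 (adjusted p = 0.00142), a value that moved to 0.81 with replicates 1 and 2 summed (adjusted p = 0.0599) and to 0.78 without replicate 2 of every group (adjusted p = 0.0822).

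Between media RPN4 did not pass the test within either strain. Within LG it differed from LGD by 0.29 ± 0.129 in LGE, 0.08 ± 0.212 in LGL and 0.54 ± 0.243 in LGC on the log2 scale (adjusted p = 0.56, 0.806 and 0.36, edgeR). Within WT it differed from WTD by 0.18 ± 0.275 in WTE, 0.24 ± 0.437 in WTL and -0.39 ± 0.254 in WTC (adjusted p = 0.659, 0.75 and 0.327). All 3 differences in WT passed once replicate 3 of the supplemented medium was left out, but the libraries left in that medium nearly coincided. Those fits called 43.1% of genes without WTE replicate 3, 29.1% without WTL replicate 3 and 30.6% without WTC replicate 3. Without WTE replicate 3, RPN4 was 0.45 higher in WTE than in WTD (adjusted p = 0.0183). Without WTL replicate 3 the difference of WTL from WTD was -0.51 (adjusted p = 0.0216), and without WTC replicate 3 the difference of WTC from WTD was -0.78 (adjusted p = 0.00341). The 3 comparisons within a strain share their plain YPD libraries.

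No subunit was called higher in LG in any medium. In plain YPD 1 subunit of 32 passed the test, RPN13 (YLR421C, R64 chromosome XII, 965090 to 965560, minus strand), a ubiquitin receptor of the base, and it was lower in LG. RPN13 had 94.1, 99.6 and 111 CPM in LGD, against 133, 127 and 129 CPM in WTD, with no overlap and a difference of -0.38 ± 0.0934 (adjusted p = 0.0209, edgeR). Together with RPN4, 2 of 33 members were called, where 36.8% of the 6169 genes tested were called. The groups did not overlap in 3 members, these 2 and SCL1, where 52.7% of genes did not overlap. RPN13 was lost in 5 of 6 fits that left out 1 library (adjusted p = 0.0522 to 0.0862) and kept without LGD replicate 3. Of the 32 subunits, 30 had negative differences, with a median of -0.23 against 0.01 for all genes. RPT5 (0.03) and RPN12 (0.04) were the exceptions, and neither passed the test.

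The role groups had medians near each other in plain YPD. The 7 alpha subunits ranged from -0.42 (SCL1) to -0.04 (PRE8) with a median of -0.23, and the 7 beta subunits from -0.31 to -0.05 with a median of -0.24. The 6 ATPases of the base had a median of -0.19 and the 8 lid subunits one of -0.14. The mean log2 CPM of the 32 subunits, taken relative to its mean in WTD, was -0.34, -0.35 and 0.13 in LGD replicates 1, 2 and 3, against 0.04, 0.03 and -0.07 in WTD. LGD replicate 3 thus lay above all WTD libraries and the other LGD libraries below them. Without LGD replicate 3 there were 25 subunits called lower and RPN4 called higher, where 58.0% of genes were called, and the median of the subunits was -0.43. It was -0.14 without LGD replicate 2. With library totals in place of TMM scaling the median of all genes was 0.19 and that of the subunits -0.06, with 12 subunits positive.

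In the ethanolamine medium the difference of LGE from WTE was negative for all 32 subunits, though none passed the test. It ran from -0.62 (PRE4, a beta subunit without catalytic activity) to -0.09 (PRE8), with a median of -0.33, against 0.01 for all genes. None of the 33 members passed the test, where 0.836% of 6220 genes passed, and 11 had an unadjusted p under 0.05, beside 16.4% of genes. In 23 members, RPN4 included, the 2 groups did not overlap, against 25.8% of all genes. PRE6, the alpha subunit with the smallest p, had 151.5, 139 and 125 CPM in LGE and 206, 204 and 180.5 CPM in WTE, a difference of -0.52 ± 0.138 (adjusted p = 0.126, edgeR). LGE replicate 3 was the library with the lowest level for 17 of the 32 subunits. Without it the median of the subunits was -0.17, and 4 subunits were called lower, where 13.4% of genes were called. With DESeq2's Wald test 4 members were called as well, where 7.95% of genes were called.

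With lyso-PE and with choline no subunit passed between the strains. In LGL against WTL the median of the subunits was 0.06 and none of 33 members was called, where 1.52% of genes were called and 0 members had an unadjusted p under 0.05, beside 23.9% of genes. DESeq2's test called 0 as well, beside 13.2% of genes. The subunit with the smallest p was the ATPase RPT4, with a difference of -0.20 ± 0.111 (adjusted p = 0.322, edgeR). Upper-quartile scaling, which moved the median of all genes to -0.11, gave a subunit median of -0.05. Leaving out 1 library moved it between -0.02 (without WTL replicate 3 or LGL replicate 1) and 0.12 (without LGL replicate 3). In LGC against WTC the median was -0.13, or 0.02 with library totals, and RPN4 was the 1 member called, where 16.6% of genes were called. The alpha subunit PRE5 had the smallest p among the subunits, with 193, 208 and 234.5 CPM in LGC, against 259, 249 and 271 CPM in WTC. All 3 LGC values lay below the WTC values, and the difference of -0.32 ± 0.116 did not pass (adjusted p = 0.101). Without LGC replicate 3 there were 16 subunits called lower beside RPN4, where 36.2% of genes were called, and the median was -0.29. It was -0.05 without LGC replicate 1 and -0.04 without LGC replicate 2.

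**Figure D2:**
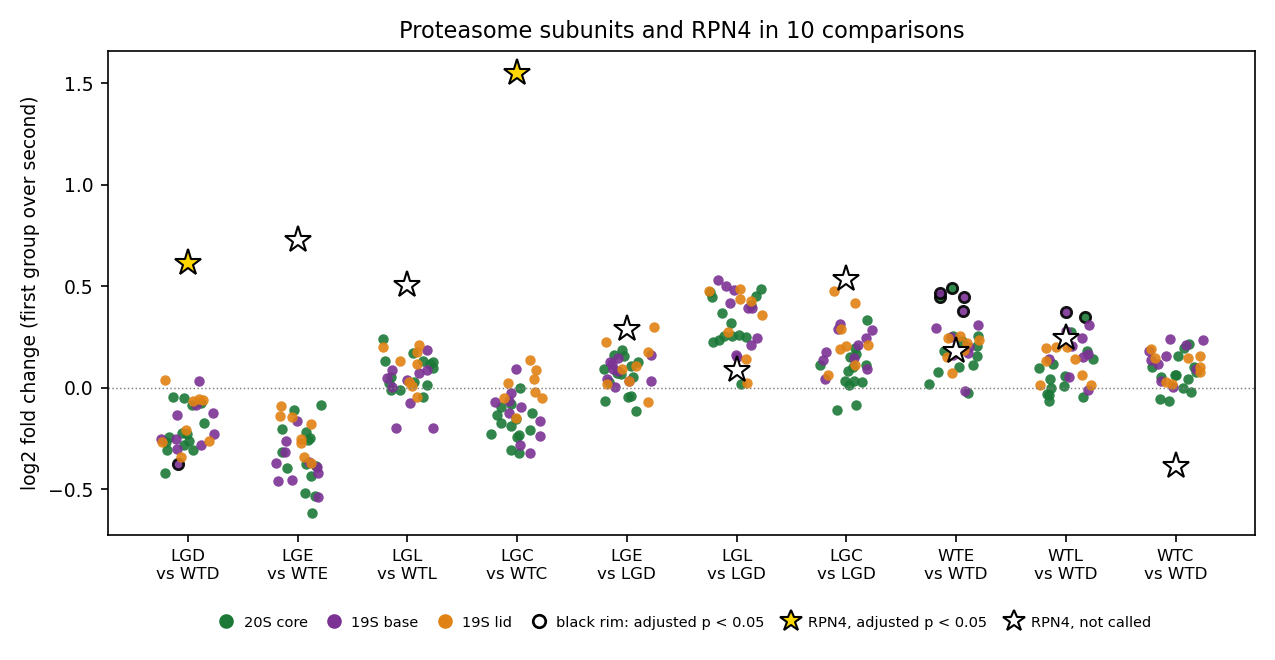
Log2 fold changes (first group over second, vertical axis) of 32 subunits (dots coloured by subcomplex) and RPN4 (stars) in 10 comparisons, with black rims and gold stars for adjusted p under 0.05 by edgeR. RPN4 stands above all subunits between the strains in each medium, while the subunits lie mostly below 0 in LGD vs WTD and LGE vs WTE.

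Averaged over the 4 media, in the comparison added after the data were seen, 8 subunits were lower in LG and RPN4 was higher. These 9 of 33 members stand beside 36.0% of 6322 genes called, and the median of the subunits was -0.15 against 0.03 for all genes. The 8 were the alpha subunit PRE5 (-0.24), the beta subunits PRE4 (-0.30), PRE2 (-0.24) and PUP1 (-0.17), the ATPases RPT1 (-0.22) and RPT4 (-0.19), the base scaffold RPN1 (-0.26) and RPN13 (-0.26). PRE2 carries the chymotrypsin-like and PUP1 the trypsin-like activity of the core. Adjusted p-values ran from 0.00746 for PRE4 to 0.0324 for PUP1 (edgeR). None of the 8 passed with replicates 1 and 2 summed, without replicate 1 or without replicate 2. Without replicate 3 there were 27 subunits called lower, where 67.9% of genes were called, but the libraries left in each group were then the 2 that nearly coincide.

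In WT grown with ethanolamine 5 subunits rose and 30 of 32 were positive, with a median of 0.20 against 0.03 for all genes. The 5 called members stand beside 22.6% of 6170 genes called, all 5 in the higher direction (11.6% of genes). PRE6 (YOL038W, chromosome XV, 255337 to 256101, plus strand) had 206, 204 and 180.5 CPM in WTE, against 146, 138 and 142 CPM in WTD, and rose by 0.49 ± 0.0891 (adjusted p = 0.00704, edgeR). RPN10 (YHR200W, chromosome VIII, 499079 to 499885, plus strand), a ubiquitin receptor, had 225, 234.5 and 204 CPM in WTE, against 174, 164 and 156 CPM in WTD, and rose by 0.45 ± 0.0959 (adjusted p = 0.0139). RPT4 (YOR259C, chromosome XV, 812395 to 813708, minus strand) had 204, 209.6 and 165 CPM in WTE, against 136, 141 and 147 CPM in WTD, and rose by 0.47 ± 0.108 (adjusted p = 0.0182). In these 3 genes every WTE library lay above every WTD library. PUP1 (YOR157C, chromosome XV, 630966 to 631751, minus strand) rose by 0.44 (adjusted p = 0.0185) and the ATPase RPT2 (YDL007W, chromosome IV, 438047 to 439360, plus strand) by 0.38 (adjusted p = 0.0227). Of the 6 fits that left out 1 library, the call was lost in 5 for RPT2, 4 for RPT4, 3 for PUP1 and 3 for RPN10. PRE6 passed in all 6, with adjusted p up to 0.0478.

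The groups did not overlap in 23 of the 32 subunits in WTE against WTD, where 42.0% of all genes did not overlap. With the replicate number as a block 8 subunits rose, where 33.2% of genes were called. With library totals, which moved the median of all genes to 0.22, 26 members were called, where 29.7% of genes were called. Leaving out 1 library gave 3 members without WTD replicate 1 (10.6% of genes called), 1 without WTD replicate 2 (10.7%) and 3 without WTD replicate 3 (16.4%). It gave 2 without WTE replicate 1 (12.2%), 1 without WTE replicate 2 (11.2%) and 13 without WTE replicate 3 (43.1%).

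In WT with lyso-PE 2 subunits rose, where 12.7% of 6147 genes were called. PRE6 had 188, 183 and 168 CPM in WTL, against 146, 138 and 142 CPM in WTD, and rose by 0.35 ± 0.0803 (adjusted p = 0.0366, edgeR). RPT4 had 187, 189 and 170.2 CPM in WTL, against 136, 141 and 147 CPM in WTD, and rose by 0.37 ± 0.0811 (adjusted p = 0.0312). The comparison shares the WTD libraries with that of ethanolamine. All WTL values of both genes lay above all WTD values, while the median of the subunits was 0.13. PRE6 was lost in 5 of the 6 fits that left out 1 library and RPT4 in 4. The counts were 0 without WTD replicate 1 or 2 (1.74% and 1.60% of genes called) and without WTL replicate 1 or 2 (4.72% and 4.35%). They were 1 without WTD replicate 3 (8.92%) and 10 without WTL replicate 3 (29.1%). In WT with choline no member passed, where 19.1% of genes were called. By an unadjusted p under 0.05 there were 2 subunits, beside 34.5% of genes, and DESeq2's test called 0 members, beside 25.0% of genes. The median of the subunits was 0.10, and RPT2 had the smallest p (0.23 ± 0.0961, adjusted p = 0.131). The median was 0.03 without WTC replicate 3.

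In LG the largest median shift of the subunits was with lyso-PE, but none of the 32 passed. All 32 differences of LGL from LGD were positive, from 0.02 to 0.53, with a median of 0.36 against 0.01 for all genes. Of 6202 genes 13.3% passed, and 10 members had an unadjusted p under 0.05, beside 34.0% of genes. SEM1, the lid subunit outside the members, was listed with the associated factors. It was called higher in LGL than in LGD, without overlap (0.73 ± 0.181, adjusted p = 0.0414, edgeR). DESeq2's test called 1 member, beside 25.8% of genes. RPN10 had the smallest p, with 222, 219 and 197.5 CPM in LGL, against 139, 131 and 187 CPM in LGD, a difference of 0.48 ± 0.171 (adjusted p = 0.0955, edgeR). The groups did not overlap, though LGD replicate 3 was close to LGL. Without LGD replicate 3 there were 22 subunits called higher, with a median of 0.55, where 33.2% of genes were called. Without LGL replicate 3 there was 1, where 24.5% of genes were called. With all 24 libraries in one fit 9 members were called, where 26.6% of genes were called.

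With ethanolamine the subunits of LG had a median difference from LGD of 0.09 and no member passed, where 0.225% of genes passed. By an unadjusted p under 0.05 there were 0 members, beside 9.62% of genes, and 0 by DESeq2's test, beside 2.84% of genes. RPN8, a lid subunit that pairs with RPN11, had the smallest p (0.30 ± 0.163, adjusted p = 0.634, edgeR). Leaving out LGD replicate 1 gave a subunit median of 0.00, leaving out LGD replicate 3 gave 0.27, and it was -0.06 with replicates 1 and 2 summed. With choline the median was 0.15 and no member passed, where 0% of 6198 genes passed. By an unadjusted p under 0.05 there was 1, beside 14.5% of genes, and DESeq2's test called 0 members, beside 5.26% of genes. RPN8 again had the smallest p, with 136, 134 and 169 CPM in LGC and 99.7, 102.5 and 128 CPM in LGD (0.42 ± 0.147, adjusted p = 0.297). The groups did not overlap, and replicate 3 was the highest in both. With the replicate number as a block 8 subunits were called higher in LGC than in LGD, where 24.3% of genes were called. The median was 0.35 without LGD replicate 3 and 0.01 without LGC replicate 3.

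Interaction terms tested whether the subunits responded differently in the 2 strains, and no member passed in any of the 3 by edgeR's or DESeq2's test. DESeq2's test called 30.9% of genes for lyso-PE, 10.8% for ethanolamine and 11.7% for choline. For lyso-PE the median of the subunits was 0.26 against -0.01 for all genes, 27 of 32 were positive, and 25.2% of 6268 genes were called. SCL1 had the smallest p (0.50 ± 0.216, adjusted p = 0.115, edgeR), and 3 subunits had an unadjusted p under 0.05, beside 37.3% of genes. Without LGD replicate 3 there were 18 subunits called, all positive, with a median of 0.46, where 35.0% of genes were called. With library totals the median was 0.12. For ethanolamine the median was -0.12, 5.30% of genes were called and the smallest p belonged to PRE6 (-0.44 ± 0.225, adjusted p = 0.291). That median was 0.07 without LGD replicate 3, 0.01 without LGE replicate 3, -0.27 with library totals and -0.30 with replicates 1 and 2 summed, so its sign rested on single libraries. For choline the median was 0.06, 0.863% of genes were called and the smallest p belonged to RPN6, the lid subunit that clamps lid and core together (0.35 ± 0.235, adjusted p = 0.347). The choline median ran from -0.11 without LGC replicate 3 to 0.28 without LGD replicate 3. An unadjusted p under 0.05 was found for 0 members with ethanolamine, beside 21.3% of genes, and for 1 member with choline, RPN4, beside 26.2% of genes.

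**Figure D3:**
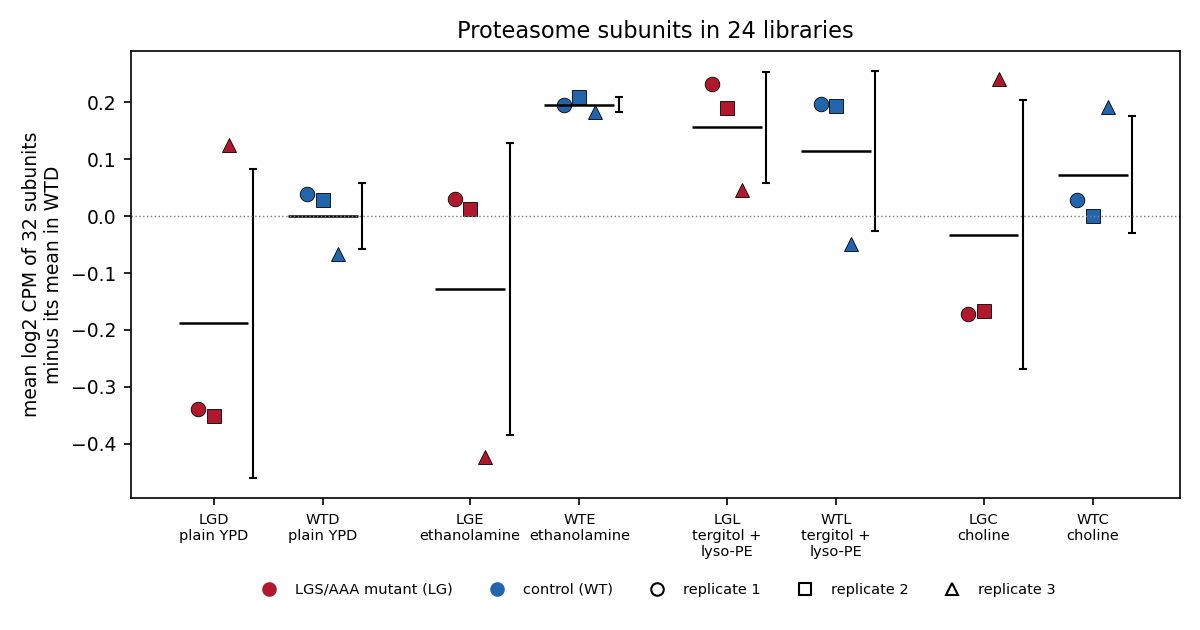
Mean log2 CPM of the 32 subunits, relative to its mean in WTD (vertical axis), in 24 libraries by group, LG left of WT for each medium, with a line at each group mean and bars of ± 1 SD (n = 3). LGE replicate 3 is the lowest library at -0.42 and LGC replicate 3 the highest at 0.24, each far from the other libraries of its group.

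The subunits varied together across the libraries. All 496 pairs of subunits had a positive Pearson's r of log2 CPM over the 24 libraries, with a median of 0.78. Pairs of other genes were not computed, so whether this is particular to the subunits is not known. Against RPN4, r was negative for 31 of 32 subunits, with a median of -0.36, and ran from -0.75 for RPN13 to 0.08 for the lid subunit RPN7. These correlations are descriptions over libraries that share strains, media and replicate numbers, so the points are not independent. The same-numbered LG library had a lower subunit mean than the WT library in 8 of 12 pairs, which the labels do not tie together and which are not independent. In replicates 1, 2 and 3 the LG minus WT difference in the subunit mean was -0.38, -0.38 and 0.19 in plain YPD, -0.17, -0.20 and -0.61 with ethanolamine, 0.03, 0.00 and 0.09 with lyso-PE, and -0.20, -0.17 and 0.05 with choline. The differences in RPN4 were 0.51, 0.61 and 0.82 in plain YPD, 0.31, 0.50 and 1.69 with ethanolamine, 0.91, 1.03 and 0.05 with lyso-PE, and 2.16, 2.24 and 0.40 with choline. The pairs with the largest RPN4 differences, replicates 1 and 2 with choline, did not have the lowest subunit differences. The lowest, -0.61, was that of ethanolamine replicate 3, where RPN4 had the next largest difference, 1.69. The subunits of lyso-PE replicates 1 and 2 were near 0 beside RPN4 differences of 0.91 and 1.03.

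**Figure D4:**
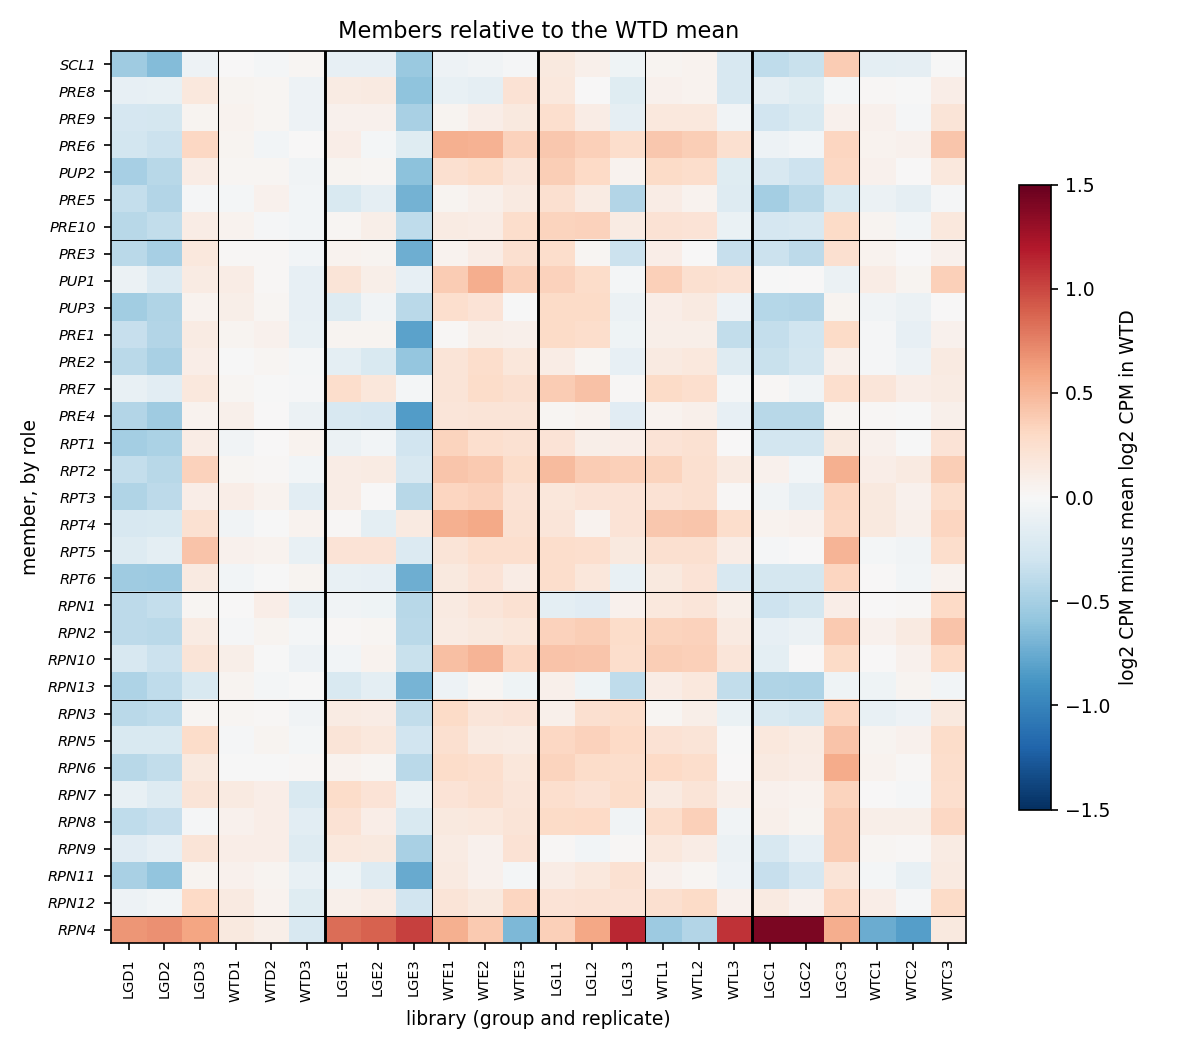
Log2 CPM of each member (rows, by role) minus its mean in WTD, in 24 libraries (columns, LG left of WT within each medium), red above and blue below the WTD mean. The subunit rows shade alike within a library, as in LGD replicates 1 and 2 (blue) and LGC replicate 3 (red), while the RPN4 row is red in every LG library.

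RPN4 was also the most variable member. Its SD of log2 CPM over the 24 libraries was 0.67 and its highest library was 4.74 times its lowest. The subunits had SDs of 0.15 to 0.27 (median 0.23) and ratios of 1.48 (RPN7) to 2.13 (PRE1, a beta subunit). Among 3199 genes with a mean of at least 50 CPM the median SD was 0.29, and 6.53% had a larger SD than RPN4.

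Per length of gene, the highest levels were those of core subunits. Per kilobase, the highest core subunit was PRE3, the beta subunit with caspase-like activity, at 455 ± 75.8 CPM per kb (SD, n = 24 libraries), and the lowest was PRE6 at 209.9 ± 35.2. In the 19S particle RPT5 was highest at 266 ± 34.3 CPM per kb and RPT4 lowest at 120.7 ± 18.0. RPN4 stood at 178 ± 76.3 CPM per kb, between the lid subunits RPN7 (179.0) and RPN11 (175), and its libraries covered the range of all lid subunits. Each gap between neighbours in this order was smaller than the larger of their SDs.

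**Figure D5:**
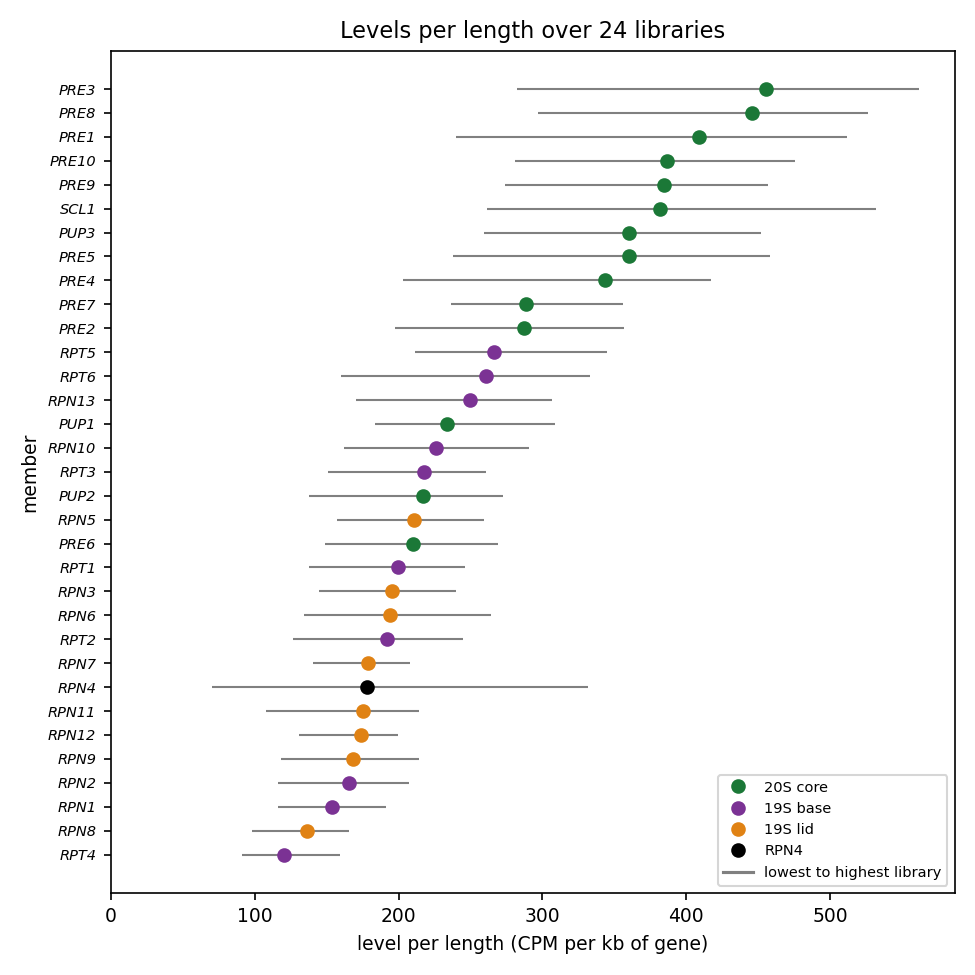
Mean level in CPM per kilobase of gene (horizontal axis) of 33 members over 24 libraries, ordered from high to low, with lines from the lowest to the highest library and colours for the subcomplex. The 11 highest are 20S core subunits, and RPN4 has the widest relative range.

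Between the strains in plain YPD and with ethanolamine, subunits with and without an exact match to the PACE motif had medians near each other. The difference between these sets was not tested. Near matches were not searched, so the subunits without an exact match may still hold a variant of the motif. In LGD against WTD the 27 with it had a median of -0.23 and the 5 without it one of -0.27. In LGE against WTE the medians were -0.32 and -0.39. They were -0.13 and -0.23 in LGC vs WTC, 0.37 and 0.26 in LGL vs LGD and 0.15 and 0.04 in LGC vs LGD. In WTL vs WTD they were 0.13 and 0.20. In WTE vs WTD 3 of the 27 and 2 of the 5 were called, beside 22.6% of all genes. In the average over the 4 media 5 of the 27 and 3 of the 5 were called, beside 36.0% of all genes. The 71 other genes with the motif had a median of -0.20 in plain YPD, ranged from -1.86 to 2.02, and 23 of them were called, beside 36.8% of all genes.

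Genes that act with the proteasome were given from lists that are not part of the 33. In plain YPD 2 of 10 assembly chaperones were lower in LG, 0 were higher, and the median was -0.10. They were IRC25, which helps build the alpha ring (-0.51, adjusted p = 0.0101, edgeR), and TMA17, a chaperone of the base (-0.76, adjusted p = 0.0376). Of 6 proteasome-associated factors 0 passed, and of 13 genes that handle ubiquitin 2 were lower: the chain-elongating enzyme UFD2 (-0.39, adjusted p = 0.0171) and the ubiquitin ligase RSP5 (-0.50, adjusted p = 0.0114). None of the 3 genes for Rpn4 turnover (UBR2, MUB1 and UBR1) passed in plain YPD. These shares stand beside 36.8% of genes called in LGD against WTD and 17.3% called lower. With ethanolamine and with lyso-PE 0 of these 32 genes were called between the strains, beside 0.836% and 1.52% of all genes. With choline 1 assembly chaperone and 2 ubiquitin genes were lower and 1 associated factor was higher, beside 16.6% of all genes called there. In the average over the 4 media, added after the data were seen, UBR2 was lower in LG (-0.34, adjusted p = 0.00524, edgeR). Also lower there were IRC25, POC4, ECM29, UFD1, RAD23, UFD2 and RSP5, while FUB1 and RAD6 were higher, beside 36.0% of all genes called.

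Among the genes of drug resistance, PDR5 was called higher in LG in all 4 media and PDR3 in plain YPD and with choline. Of 4 transcription factors that act on RPN4, 1 passed in plain YPD, PDR3, with 234, 228 and 213 CPM in LGD, against 164, 158 and 119.7 CPM in WTD. All LGD values lay above all WTD values, and the difference was 0.59 ± 0.139 (adjusted p = 0.018, edgeR). PDR3 was also higher in LGC than in WTC (0.71 ± 0.135, adjusted p = 0.0172). Its differences with ethanolamine (0.77 ± 0.189, adjusted p = 0.108) and lyso-PE (0.54 ± 0.255, adjusted p = 0.252) were of about the same size and did not pass. With ethanolamine PDR3 had 287, 286 and 267 CPM in LGE, against 186, 182 and 121 CPM in WTE, with no overlap. The drug pump PDR5 had 3878, 3949 and 2203 CPM in LGD, against 254, 265 and 198 CPM in WTD, so that the lowest LGD library was far above the highest WTD library. Its difference was 3.78 ± 0.284 in plain YPD, 3.33 ± 0.253 with ethanolamine, 2.66 ± 0.208 with lyso-PE and 2.86 ± 0.238 with choline (adjusted p = 0.000849, 0.00396, 0.0213 and 0.00241). The transporters SNQ2 (1.07, adjusted p = 0.018) and YOR1 (0.33, adjusted p = 0.048) were higher in LGD as well, where 19.5% of genes were called higher, and neither was called between the strains in the other media. Between media in WT, PDR1 (0.72, adjusted p = 0.00337) and SNQ2 (0.66, adjusted p = 0.019) rose with ethanolamine, and PDR5 rose with lyso-PE (0.93, adjusted p = 0.00965) and with choline (0.41, adjusted p = 0.0476), while RPN4 was not called in these 3 comparisons, which share WTD. In the average over the 4 media, added after the data were seen, PDR3 (0.66), PDR5 (3.17), SNQ2 (0.55) and YOR1 (0.29) were called higher in LG. Of all genes 36.0% were called there. The part of PDR3 in the RPN4 difference was not tested.

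In WT with ethanolamine, where 5 subunits rose, genes of the other lists passed as well. Over all genes 22.6% were called there and 11.6% were higher. Of the 10 assembly chaperones 2 rose, PBA1 (0.51, adjusted p = 0.0202, edgeR) and UMP1 (0.34, adjusted p = 0.0342), and TMA17 fell (-0.55, adjusted p = 0.0198). Of the 6 associated factors 3 rose: the adaptor ECM29 (0.57), the activator BLM10 (0.46) and the ubiquitin ligase HUL5 (0.30), with adjusted p = 0.0356, 0.0223 and 0.0476. Of the 13 genes that handle ubiquitin 1 was called with ethanolamine, the shuttle factor RAD23. It rose by 0.46 with ethanolamine, 0.55 with lyso-PE and 0.38 with choline (adjusted p = 0.0102, 0.0106 and 0.0358). Of the 3 genes for Rpn4 turnover 1 rose with ethanolamine, UBR1 (0.46, adjusted p = 0.0171). Of the 4 transcription factors that act on RPN4 2 rose with ethanolamine, PDR1 and YAP1 (0.42 for YAP1, adjusted p = 0.0195). These genes, and PDR1 above, were named after their values were seen, and the 3 comparisons share WTD.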

How the data were processed

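Each of 7 deposited tables covers 2 groups and gives read counts per gene as whole numbers, per the file headers, which were the values used. The tables also hold a signal (counts divided by 1 size factor per library and table), FPKM, log2 fold changes and p-values of the authors, per the file headers, none of which entered a test. The submitters' processing notes name STAR 2.5, HTSeq 0.6.1, DESeq2 and CASAVA without their roles. The genome build, the annotation and the strandedness are not given in the sources used here. None of the 33 members overlaps another gene, and their deposited coordinates equal those of R64, the build of the sequences printed.

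Joining the tables gave 6814 genes, with 0 differing values and 0 unmapped sample columns. The libraries of the groups compared entered each fit, 6 for a pair of groups and 12 for an interaction. The test was the quasi-likelihood F test of edgeR 4.0.16 (R 4.3.3), with TMM scaling, filterByExpr and Benjamini-Hochberg adjustment over all genes tested (threshold 0.05). Standard errors were derived from the F statistic, and CPM used TMM-scaled totals over 24 libraries. Alternatives were other scalings, no filter, DESeq2 1.42.0, the replicate number as a block, summed replicates 1 and 2, all 24 libraries in one fit, a threshold of 0.01 and leaving out each library. The mean strain difference over 4 media was added after the data were seen.

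The members and lists were chosen with earlier results of these data known. RPN4 was named throughout, and of the subunits those called in a fit, the one with the smallest p of each fit, and the extremes per length. The labels number the replicates without tying a number to a day or batch. Across genes, the departures of libraries with equal numbers from the mean of their group correlated at -0.622 to 0.704, and all 3 correlations exceeded 0.1 in 4 of 10 comparisons (LGC vs LGD, LGC vs WTC, LGL vs WTL and WTE vs WTD), where the blocked value is given beside a result it changed.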

Additional observations from a re-analysis of the deposited data

How the results depend on the processing

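Counts of members called (of 33) and the RPN4 difference were recomputed under each alternative. DESeq2's size factors in place of TMM and the absence of a filter kept every count within 1.5 times. For LGD vs WTD, where 2 members were called, library totals (41.7% of genes called) and the replicate block (20.3%) each gave 1. Summed replicates 1 and 2 (1.53%), all 24 libraries in one fit (31.3%) and a threshold of 0.01 (14.5%) each gave 0. For LGC vs WTC, with 1 called, DESeq2's test gave 2 (27.6% of genes called). The block (20.5%), the summed replicates (0%) and the threshold of 0.01 (4.13%) gave 0. For WTE vs WTD, with 5 called, upper-quartile scaling gave 8 (23.2% of genes called), library totals 26 (29.7%), DESeq2's test 12 (28.4%) and the replicate block 8 (33.2%). Summed replicates gave 0 (4.65%), all 24 libraries 2 (7.59%) and the threshold of 0.01 gave 1 (8.98%). For WTL vs WTD, with 2 called, library totals gave 10 (19.4% of genes called) and DESeq2's test 4 (21.4%). The block (0.0161%), the summed replicates (0%), all 24 libraries (2.89%) and the threshold of 0.01 (2.38%) gave 0. Where no member was called, DESeq2's test gave 4 (7.95% of genes called) and all 24 libraries 5 (8.37%) for LGE vs WTE. For LGL vs LGD, DESeq2's test gave 1 (25.8%) and all 24 libraries 9 (26.6%). The replicate block gave 8 (24.3%) for LGC vs LGD, and library totals 1 (21.3%) for WTC vs WTD. For the mean strain difference over 4 media, with 9 called, upper-quartile scaling gave 14 (36.7% of genes called) and library totals 4 (37.5%). Summed replicates gave 0 (13.6%) and the threshold of 0.01 gave 3 (23.0%). The causes were not tested, except that summing leaves 2 libraries a group.

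Leaving out 1 library gave 1 to 26 members for LGD vs WTD, with 58.0% of all genes called at the highest count. With that share in brackets, it gave 0 to 4 for LGE vs WTE (13.4%) and 0 to 1 for LGL vs WTL (5.71%). It gave 0 to 17 for LGC vs WTC (36.2%), 0 to 22 for LGL vs LGD (33.2%) and 1 to 13 for WTE vs WTD (43.1%). For WTL vs WTD it gave 0 to 10 (29.1%), for WTC vs WTD 0 to 1 (30.6%) and for the lyso-PE interaction 0 to 18 (35.0%). Leaving out 1 replicate number gave 0 to 28 for the mean strain difference (67.9%). In each of these ranges the highest count came from leaving out a replicate 3. The RPN4 difference changed sign where it had not passed: in LGL vs LGD without LGL replicate 3 (-0.16), in WTE vs WTD without WTE replicate 1 (-0.04), in WTL vs WTD without WTL replicate 3 (-0.51), in the ethanolamine interaction with library totals (-0.05) and without WTE replicate 3 (-0.18), and in the lyso-PE interaction without WTL replicate 3 (0.61) and without LGL replicate 1 (0.03). Over the fits that left out 1 library the RPN4 difference ran from -0.16 to 0.26 in LGL vs LGD, -0.04 to 0.45 in WTE vs WTD, -0.51 to 0.52 in WTL vs WTD, -0.18 to 0.31 in the ethanolamine interaction and -0.40 to 0.61 in the lyso-PE interaction. Beside the calls given with their results, the block changed no call of a comparison with paired numbers, and the comparisons whose numbers did not pair share only a number. All 33 members were at 80.3 CPM or more in every library.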
